A study of Mus musculus with 8 samples.

Results

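The 3 peak lists of control immunoprecipitates (IP) over input, made with an anti-Zmat3 antibody in transformed mouse embryonic fibroblasts, held 405375 called peaks, namely 129323 in control 1, 153768 in control 2 and 122284 in control 3. All of their peaks were taken, out of 978429 peaks in the 7 lists of the series. The 3 control lines carried Cas9, E1A and oncogenic Hras (HrasG12V) and each a different negative control guide RNA, named EV, SPA and ACOCA in the labels. The comparison line was Zmat3-/- with E1A and HrasG12V and no guide RNA, and its label lists no Cas9. It was represented by 1 line and 1 list over input, with 167648 peaks. All 4 lines thus shared E1A and HrasG12V, and the control guides were selected with puromycin for 3 days and followed by 10 days of culture. The series comprised 4 IPs and 4 inputs of UV-crosslinked cells. Complexes of 35 to 110 kDa were cut from the gel for RNA. Nothing in the labels says whether the control lines came from separate embryos, so the spread between them may be partly technical.

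Zmat3 is a zinc finger protein that binds RNA and is a transcriptional target of p53, and it is known for binding introns and altering splicing. In crosslinking and immunoprecipitation (CLIP), UV light joins a protein to the RNA it touches, and reads of the recovered fragments pile up as peaks. An input library of the same lysate shows which RNAs are abundant in that part of the gel without the antibody, so a log2 fold over input describes recovery relative to abundance, and an IP from cells without the protein shows what the antibody and beads recover by themselves.

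Among the RNAs short enough to be shown whole, microRNA hairpins lay highest over input by their median peak. Mir18 was the one hairpin under an enriched peak in all 3 controls. A peak counts as enriched where its log2 fold reaches 3 and its −log10 p reaches 3 as well. The mature microRNAs are written 5′ to 3′ with the seed (bases 2 to 8) in capitals, from RefSeq on GRCm38.p6. They are shown because their hairpins carried an enriched peak in at least 2 controls.
mmu-miR-18a-5p: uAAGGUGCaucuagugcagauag
mmu-miR-21a-5p: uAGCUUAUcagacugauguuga
mmu-miR-7a-5p: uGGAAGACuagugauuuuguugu
mmu-miR-23b-5p: gGGUUCCUggcaugcugauuu
mmu-miR-19a-3p: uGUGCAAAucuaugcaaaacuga
mmu-miR-23a-3p: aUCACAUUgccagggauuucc
Each of these had a seed of its own, though not every strand of each hairpin is shown. The Mir23b hairpin also holds the bases of the miR-23a-3p seed. Of miR-19a-3p itself, only a part lay under an enriched peak, and only in control 2. In the hairpins that follow, capitals mark the bases under an enriched peak of all 3 controls (Mir18, chr14:115043851-115043946, plus strand) or of at least 2 (Mir21a, chr11:86584067-86584158, minus strand).
Mir18 hairpin: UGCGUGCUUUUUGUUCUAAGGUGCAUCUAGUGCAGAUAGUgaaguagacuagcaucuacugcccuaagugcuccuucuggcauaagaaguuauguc
Mir21a hairpin: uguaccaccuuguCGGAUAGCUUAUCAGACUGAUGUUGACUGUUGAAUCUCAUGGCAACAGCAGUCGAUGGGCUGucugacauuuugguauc
In Mir18 the shared stretch held the whole of miR-18a-5p and none of the 3p strand.

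Of the 1005 hairpins in the RefSeq table, 166 lay under a called peak of at least 1 control on their own strand and 36 under one in all 3. Of those 36, 24 were above input in all 3 controls and 8 were below it in all 3. An enriched peak covered 19 hairpins in at least 1 control and 6 in at least 2. Of the peaks assigned to microRNA hairpins, on either strand, 5.88%, 12.8% and 4.20% were enriched in controls 1 to 3, and 8.82% in the knockout. These were 6, 18, 5 and 12 peaks. The background, as a share of all called peaks, was 1.02% in control 1, 1.05% in control 2, 0.494% in control 3 and 0.316% in the knockout.
The highest peaks on Mir18, a member of the Mir17-92 cluster, had log2 folds of 3.42, 4.60 and 3.81 in controls 1 to 3. They came from 43, 24 and 37 IP reads over 5, 1 and 2 input reads. They were not of the same stretch, since that of control 2 (chr14:115043890-115043927) began just past miR-18a-5p, which the other 2 covered. The highest knockout peak on the hairpin stood at 3.19, from 70 over 3 reads, so the library without Zmat3 recovered Mir18 too. On Mir19a, of the same cluster, the highest peaks were at 2.56, 4.29 and 3.45, and at 3.32 in the knockout.
Mir21a, a microRNA induced in many tumours, had 2.64, 4.23 and 3.84, and its knockout peak was higher than all of these, at 4.91. Mir125a had like values in the controls, 3.28, 2.94 and 2.98, and lay at 2.75 in the knockout. Mir7-1, whose hairpin lies within Hnrnpk, had 4.02, 4.41 and 2.18 in the controls and 1.97 in the knockout. Mir23a had no called peak in control 1, 4.72 in control 2 and 3.77 in control 3, and 1.82 in the knockout. These peaks rested on as few as 5 IP reads. In the knockout list 9 hairpins carried an enriched peak, and 6 of these were among the 19 and 3 among the 6 of the controls.

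The median log2 fold of a called peak was 0.90, 0.60 and 0.60 in controls 1 to 3 and 0.23 in the knockout. The share of peaks above input was 82.7%, 80.5% and 74.7%, against 58.9% in the knockout. The reads behind a peak are not in the lists but could be recovered as whole numbers from its fold and p-value. This worked for 106933 of 106973 peaks at or above input in control 1, 123660 of 123712 in control 2 and 91262 of 91286 in control 3. By these reads the IP was 0.804, 0.989 and 1.32 times as deep as the input in controls 1 to 3 and 2.55 times as deep in the knockout. A peak with 1 input read therefore needed 12, 13, 18 and 29 IP reads to be called enriched. An input of 0 reads and one of 1 read cannot be told apart in these values. Of 14 fibroblast markers 8 had a called peak in a control, among them Vim and Fn1, whereas Col1a1, Col1a2, Thy1, S100a4, Dcn and Lum had none. Of 26 markers of other cell types 6 had one. Over all genes, 10017, 10586 and 9767 had a called peak in controls 1 to 3. Their share of the genes in RefSeq was not determined, so the marker counts do not test the identity of the cells.

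The number of enriched peaks differed between controls. It was 1319, 1622 and 604 in controls 1 to 3 (mean 1182 ± 523, SD, n = 3), and 529 in the knockout, a share of 0.316%. Control 3 lay much closer to the knockout than to the other controls. The IP reads needed over 1 input read were also highest in control 3 and the knockout. A peak with at least 29 IP reads could be called over 1 input read in every library. Of such peaks at or above input, 385, 576 and 326 passed in controls 1 to 3, against 529 in the knockout. These were 18.4%, 23.3% and 28.4% of such peaks in the controls and 22.2% in the knockout, so among them the knockout share lay within the control range. Peaks below input, whose reads were not recovered, are left out of these shares, and they were more frequent in the knockout list. The median enriched peak had 20, 22 and 31 IP reads in the controls and 52 in the knockout, and 39.3%, 48.2% and 48.3% of the enriched control peaks rested on 1 input read.

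**Figure D1:**
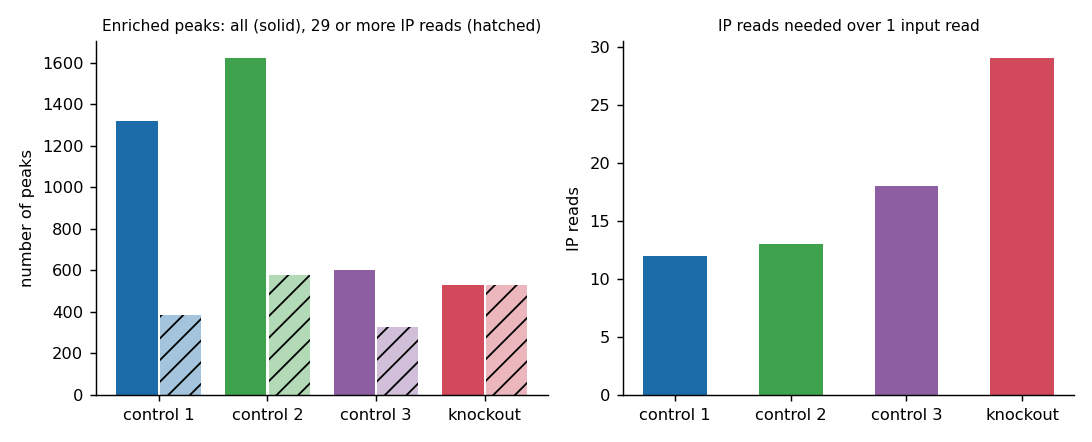
Number of enriched peaks in each of the 4 lists over input, all peaks as solid bars and those with at least 29 IP reads as hatched bars (left), and the number of IP reads a peak needs over 1 input read to be called enriched (right). The solid bars range from 604 to 1622 in the controls against 529 in the knockout, and the hatched ones from 326 to 576 against 529.

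Enriched peaks of different controls were joined where they shared 1 nt or more on one strand, which gave 2521 sites. Of these, 1960 came from 1 control, 346 from 2 and 215 from all 3. The 215 sites were 0.918% of the 23428 sites at which all 3 controls had a called peak, and they formed 169 loci when sites within 2000 nt were joined. They lay in 158 genes, 1.82% of the 8678 genes with a called peak in every control. Without control 3, which had the fewest enriched peaks, 382 sites in 281 genes were enriched in both other controls. The median width of the 215 sites was 128 nt and their median log2 fold, averaged over controls, was 4.26. Of 201 such sites in protein-coding genes 24, 31, 57, 44 and 45 lay in consecutive quintiles of the gene's span from its start, so most were in the middle and later part (11.9% in the first quintile, 28.4% in the middle one). Of all called peaks, 20.1% to 23.7% lay in the first quintile and 17.4% to 17.7% in the middle one in the controls. Whether a site was in an exon, an intron or a UTR was not analysed here.

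Of the 20 genes with the highest sites, 9 had no called knockout peak there, 8 had an enriched one, 2 had one above input and 1 had one below. The highest site of all was in Prune2, which encodes a large BCH domain protein (chr19:17045288-17045421, plus strand). Its log2 folds over input were 6.44, 7.78 and 7.16 in controls 1 to 3, from 140, 218 and 189 IP reads over 2, 1 and 1 input reads, and its mean was 7.13 ± 0.67 (SD, n = 3). The knockout IP had 78 reads over 1 there, a log2 fold of 4.93, so this stretch was far above input in all 4 lists, and all 3 controls lay above the knockout.
Fnbp4, a formin-binding protein with WW domains, followed with 6.72, 6.06 and 6.48 (chr2:90768262-90768472, plus strand). Its knockout peak was at −0.03, so the controls were far above input and the knockout was at its level. The reads of that knockout peak, which lies below input, were not recovered.
Pck2, the mitochondrial phosphoenolpyruvate carboxykinase, had 6.65, 7.36 and 5.94, and Upf3b, a nonsense-mediated decay factor, had 5.60, 5.72 and 5.60, the most even of the 20. Cltc, the clathrin heavy chain, had 5.52, 7.11 and 6.99 from 111, 411 and 168 IP reads. None of these had a called knockout peak at the site.
Mdm4, the inhibitor of p53 related to Mdm2, had 6.06, 5.32 and 5.71 (chr1:133004395-133004631, minus strand), from 107, 276 and 138 IP reads over 2, 7 and 2. The knockout had 3 reads over 1, a log2 fold of 0.23. A second Mdm4 site (chr1:133003891-133004032) had lower folds of 3.09, 3.05 and 3.85 and lay below input in the knockout, at −0.67. Both Mdm4 sites were therefore well above input in each control and near or below it in the knockout.

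No knockout peak was called at the sites of Pogz (5.50, 6.93 and 5.30 in controls 1 to 3), a zinc finger chromatin protein, or of Gnpat (5.67, 5.90 and 5.12), an enzyme of ether lipid synthesis. The same was so for Rpl10 (5.07, 5.53 and 5.83), a protein of the large ribosomal subunit, and for Bcat1 (5.36, 5.10 and 4.99), the cytosolic branched-chain aminotransferase. Usp34 (5.22, 5.30 and 4.88), a deubiquitinase, also had none.
The recovery of reads took 3 as the fewest IP reads of a called peak, but the rule of the peak caller is not known. The absence of a knockout peak is therefore not a measured fold and sets no firm limit on the knockout reads. Pdxdc1, a decarboxylase domain protein, had 5.20, 6.74 and 5.60, against 0.23 in the knockout.
The other 7 genes of the 20 had enriched knockout peaks. Dcakd had 5.44, 5.85 and 5.66 in the controls and 5.76 in the knockout, within the control range. Ptprn, a phosphatase-like protein of dense-core vesicles, had 4.92, 5.06 and 4.95 against a higher knockout value of 5.62.
Plekhm2, an adaptor between lysosomes and kinesin, had 5.50, 5.85 and 4.91 against 5.52. Frmd8, Ubtd1, Wdr92 and Ralgps1 had knockout values of 4.57, 4.33, 3.52 and 4.55, each below all 3 control values of that site. Other sites of the same genes ran the other way, since a second Frmd8 site had 5.31, 4.43 and 5.40 against 6.40 in the knockout, and a second Ubtd1 site 5.54, 3.96 and 5.35 against 6.11. Of the 20 sites 18 rested on 1 input read in at least 1 control, so their folds there depend on how an input without reads was treated.

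**Figure D2:**
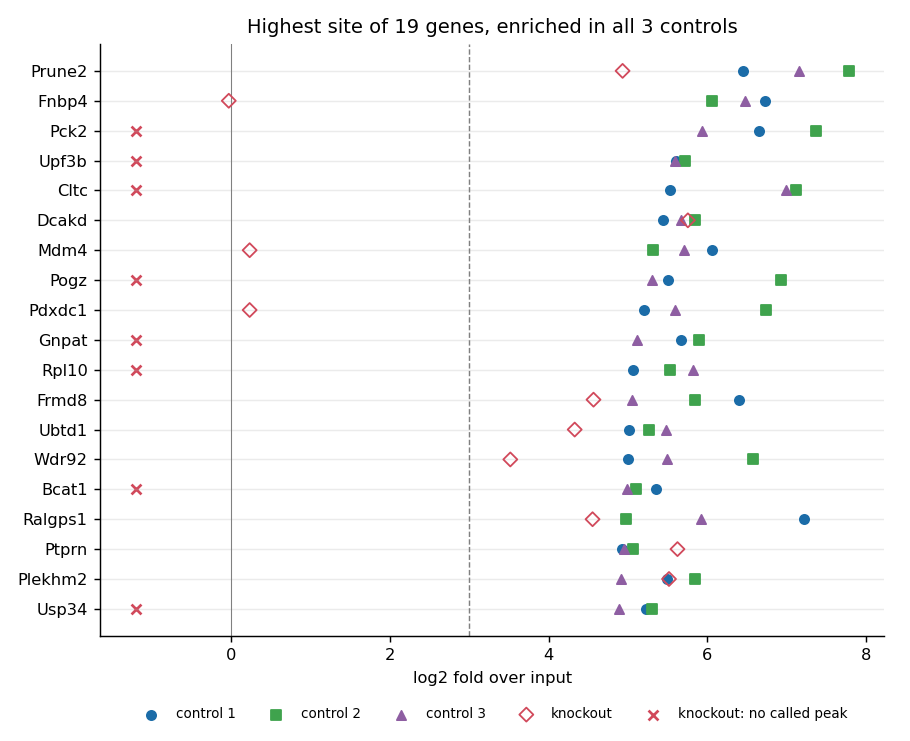
Log2 fold over input at the highest site of 19 genes, ranked by the lowest of the 3 control values, with controls 1 to 3 as filled symbols, the knockout as open diamonds and a cross where the knockout had no called peak. The dashed line marks the log2 fold of 3. All control points lie at 4.88 or above, while 8 genes have a cross and Fnbp4, Mdm4 and Pdxdc1 have knockout values from −0.03 to 0.23.

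Sites were tested on the upper side only, with the highest peak of each control as the value. By limma's treat against a log2 fold of 1 over the 3 controls, with Benjamini-Hochberg adjustment, 1194 of the 23428 sites passed (5.1%), in 852 genes. Their median estimate was 3.21. All 215 sites were among them, as their choice from the same values makes likely. The adjusted p was 6.3e-11 for the Prune2 site, 8.5e-10 for Fnbp4 and 3.6e-08 for Mdm4, higher in 3 of 3 controls at each. These sites were chosen as high in the same values, so their passing is no further support. Of all sites called in the 3 controls, 9048 (38.6%) were above input in each and 2613 were below it in each. Without control 1 the count fell to 5 sites, and with each list centred on its own median it was 163.

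The state of a site in the knockout list went with the number of sites in its gene. Of the 158 genes 131 had 1 site and 27 had 2 or more, with 73 sites. Among the single sites 80 had no called knockout peak (61.1%) and 31 an enriched one (23.7%). Among the sites of genes with several, 2 had no called knockout peak (2.74%) and 48 an enriched one (65.8%).
Both kinds of site were of like height, with a median over sites of 4.23 and 4.28. The depth was not the same in every control. The median site had 27, 49 and 33 IP reads in controls 1 to 3 for single sites, and 57, 40 and 50 for the others. Genes with several sites were longer, with a median span of 76.1 kb against 45.4 kb, and 26.4 kb over all 8678 genes. They also had more called peaks in the knockout, with a median of 41 against 23, and 9 over all genes. The part of span and peak number in the difference was not tested.
The 5 genes with most sites included Prune2, with 8 sites within 1839 nt of a gene of 268 kb, of which 5 were enriched in the knockout and 1 had no called knockout peak. All 7 Frmd8 sites, within 1063 nt, and all 4 Ptprn sites were enriched in the knockout. So were all 3 of Dcakd and all 3 of Ubtd1. Maml3, a coactivator of Notch, was different in layout, since its 4 sites spread over 242854 nt and 1 of them was enriched in the knockout. Closely spaced sites share a stretch of RNA and are not separate observations.
The number of supporting controls went with the knockout as well. A knockout peak was enriched at 88 of 1960 sites seen in 1 control (4.49%), at 76 of 346 seen in 2 (22.0%) and at 86 of 215 seen in 3 (40%). No knockout peak was called at 65.7%, 46.2% and 38.1% of these sites. Sites with more support were thus more often recovered without Zmat3 too. Called sites were seldom shared even between controls, since 229980 of the 300537 merged called control sites came from 1 control. The share of all called control sites without a knockout peak was not determined, so no background stands beside such counts here or above.

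**Figure D3:**
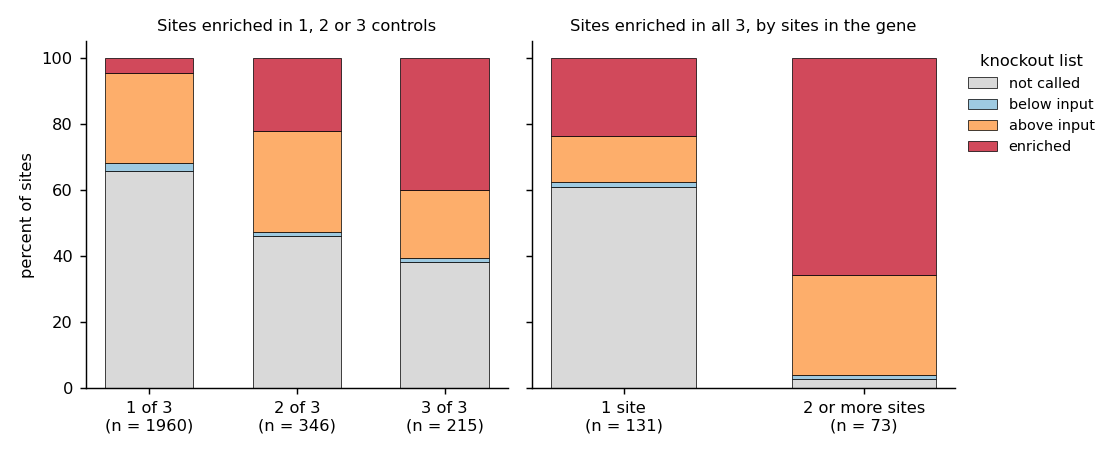
Percent of sites by their state in the knockout list (not called, below input, above input or enriched), for sites enriched in 1, 2 or 3 controls (left) and, among the 215 sites enriched in all 3 that have a named gene, by whether the gene has 1 site or 2 or more (right). The enriched share grows from 4.49% to 40% with the number of controls, and it is 23.7% for single sites against 65.8% for the rest.

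The genes of the p53 pathway held 1 of the 215 sites' genes, Mdm4, out of 38 with called peaks. In Zmat3 itself 42, 48 and 39 peaks were called in controls 1 to 3, and 1 of them, in control 2, was enriched. Its gene value, defined further on, did not pass the test. Peaks of the Zmat3 RNA do not check the knockout, since the label gives no position of the deletion.
Mdm2, the ubiquitin ligase of p53, had no site in all 3. At one interval (chr10:117705240-117705413, minus strand) its log2 folds were 2.64, 4.67 and 4.57, from 30, 1760 and 63 IP reads over 6, 70 and 2, and no knockout peak was called there. Control 1 fell short of the log2 fold of 3 by a small margin, and control 2 had by far the most reads.
The highest peaks of Cdkn1a, the p21 cell cycle inhibitor, were at 2.55, 2.70 and 2.18. Trp53 and Ptbp1, a splicing repressor, had no enriched peak in any control, and Cd44, an adhesion receptor, had 2, 0 and 1.

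The other lists were set beside the 1.82% of all genes that held a site. Of 53 core spliceosome genes with called peaks in all 3 controls 4 held one, namely Prpf8 (3.71, 5.23 and 3.24), Sf3b3 (3.22, 3.66 and 5.15), Eftud2 (3.12, 3.66 and 4.06) and Rbm25 (4.40, 4.24 and 3.08). No knockout peak was called at any of these.
Of 46 genes of the actin cytoskeleton and focal adhesions 5 did, namely Src, Map4k4, Pxn, Limk2 and Inf2. The kinase Src had 4.02, 3.60 and 3.77, and the adaptor paxillin (Pxn) had 3 sites, 2 of them enriched in the knockout.
The count was 3 of 60 for chromatin regulators (Pogz and Kdm6b among them), 2 of 58 for ribosomal proteins (Rpl10 and Rpl32) and 1 of 44 for SR proteins and hnRNPs (Hnrnpab). It was 1 of 54 for RNA decay and export (Upf3b) and 1 of 34 for vesicle coats (Cltc). No gene of the 26 of the extracellular matrix or of the 13 nuclear long non-coding RNAs held a site, and none of the 15 mitochondrial genes in the RefSeq table had a called peak.
At the threshold itself, Pde4a, Nme7 and Scap fell just outside, with lowest control values of 2.996, 2.993 and 2.989. Maml3, Zcchc8 and Ccser2 were just inside, at 3.012, 3.012 and 3.016.

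The share of called peaks that were enriched had no common direction with gene span. By quintiles of gene span, from shortest to longest, it was 0.800%, 0.889%, 1.01%, 0.897% and 0.763% (means of 3 controls), and the longest quintile minus the shortest was −0.036 ± 0.46 percentage points (SD, n = 3). This mean hides opposite directions, since the share went from 0.624% in the shortest to 1.07% in the longest quintile in control 1, from 1.24% to 0.774% in control 2 and from 0.536% to 0.442% in control 3. The share of genes with any enriched peak was different, at 2.17%, 4.18%, 6.69%, 8.77% and 11.8%, a difference of 9.58 ± 3.87 points that was positive in each control.
By quintiles of the number of called peaks, the share of genes with an enriched peak ran 1.11%, 1.66%, 3.47%, 7.32% and 20.0%, and the share of peaks was 0.988% in the lowest and 0.931% in the highest. The share of peaks went from 0.689% to 1.16% in control 1, from 1.42% to 1.06% in control 2 and from 0.857% to 0.574% in control 3. Genes with more peaks thus more often had an enriched one, while the share among their peaks went up in 1 control and down in the others.
Across genes, the Spearman correlation of the number of enriched peaks with the number of called peaks was 0.275, 0.306 and 0.190 in controls 1 to 3 (10017, 10586 and 9767 genes), and with gene span 0.171, 0.146 and 0.102. Genes are not independent replicates, and number and span went together across them, with a correlation of 0.519 to 0.540.

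The typical peak of a gene did go with its span. The gene value here is the median log2 fold of a gene's called peaks minus the median of all called peaks in that list, for the 4823 genes with at least 5 peaks in every control. Its Spearman correlation with span was 0.373, 0.374 and 0.376 in the controls, and 0.407 in the knockout. Small counts repeat in these values, and 12.4% to 15.7% of genes lay exactly at the library median in the controls (41.0% in the knockout).
By limma, with two-sided tests and Benjamini-Hochberg adjustment, 603 genes were higher than the library median (12.5%) and 507 lower (10.5%). In the shortest quintile by span 21 were higher and 199 lower. In the longest 308 were higher and 27 lower, and the quintiles between ran 45 and 122, 94 and 80, and 135 and 79. The median gene value went from −0.33 in the shortest quintile to 0.33 in the longest.
Over all genes with a called peak, the median IP reads per peak at or above input were 5.5 in the shortest span quintile. They were 3.67 in the longest (means of 3 controls), and the part of depth in this relation was not tested. The knockout medians ran from −0.58 in the shortest quintile to 0 in the longest. With summed reads in place of the median peak, 1875 genes were higher (38.9%) and 359 lower (7.44%), and the correlation with span was 0.347, 0.312 and 0.343. This measure is the log2 ratio of a gene's summed IP and input reads minus the same ratio over the whole list. No reads were recovered for peaks below input. Those entered the sums at the smallest whole reads that give their fold, so they may count for less than their true reads.
No gene passed once any 1 control was left out (0 in each case, with 1252 to 1621 genes at an unadjusted p under 0.05), and the smallest adjusted p of all was 0.027.

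**Figure D4:**
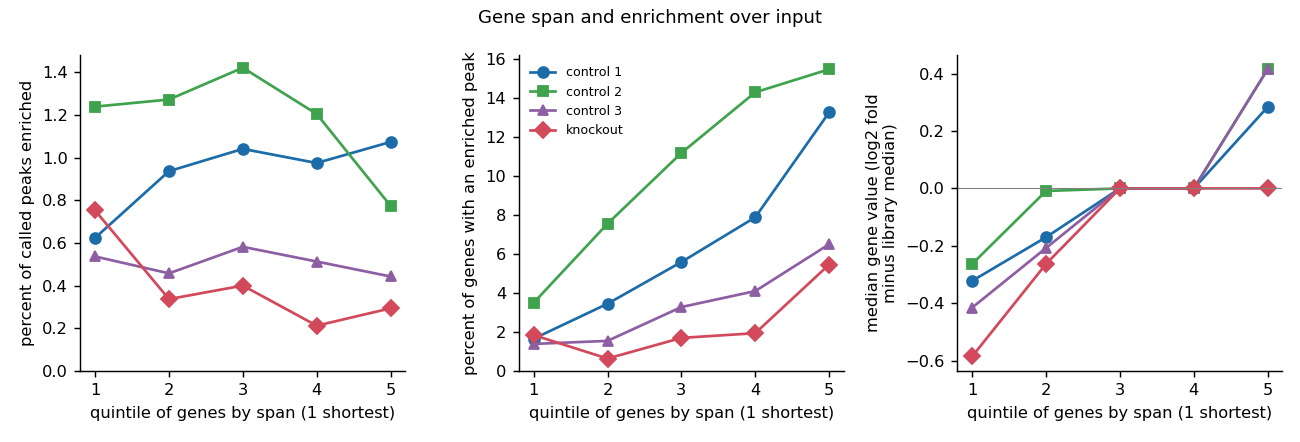
Percent of called peaks that were enriched (left), percent of genes with an enriched peak (middle) and the median gene value as log2 fold minus the library median (right), by quintiles of genes by span, 1 being the shortest, for controls 1 to 3 and the knockout. The left lines show no common slope in the controls, the middle ones climb in each, and the right ones go from below 0 to at least 0.28 in the controls and to 0 in the knockout.

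Of the genes that were higher, Frmd8 had the largest gene value, 3.20 ± 1.18 (SD, n = 3, adjusted p = 0.028 by limma), followed by Kcnip1, a potassium channel partner, at 2.97 ± 1.06. Nme7, a nucleoside diphosphate kinase family member, was at 2.08 ± 0.33, and Cdk5rap1, which modifies mitochondrial tRNA, at 1.92 ± 0.26. The next were Pdcd4, an inhibitor of translation initiation, at 1.85, Dusp5, a dual-specificity phosphatase, at 1.78, and Nova1, a splicing factor, at 1.74. Wdr92, Soat2 and Atpsckmt ended the 10, at 1.70, 1.56 and 1.55.
The 6 lowest were all H/ACA snoRNAs, which guide pseudouridylation of RNA, from Snora52 at −2.48 to Snora73b at −3.27 (SD 0.41, n = 3, adjusted p = 0.027). In the knockout these snoRNAs ran from −3.26 for Snora81 to −3.65 for Snora68, so they were low without Zmat3 too. All 16 of these genes were on the same side in 3 of 3 controls, as their choice from the same values makes likely.

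By their median peak, members of most lists that passed the test were more often lower than higher than the library median, against 12.5% higher and 10.5% lower of all genes. With summed reads the balance turned for 6 lists, as given beside them, but all genes shifted too, to 38.9% higher and 7.44% lower. Of the 6 lists only the nuclear long non-coding RNAs had a larger share higher than all genes by that measure. For the 4823 genes the median was −0.01. Of 23 extracellular matrix and adhesion genes tested 14 were lower and 0 higher, with a median of −0.51, and with summed reads 12 were lower and 1 higher. Fn1, fibronectin, was at −1.09 and Hspg2, perlecan, at −1.01.
Of 41 SR proteins and hnRNPs 15 were lower and 0 higher, with a median of −0.51 (11 and 4 with summed reads). Of 41 core spliceosome genes 17 were lower and 1 higher, at a median of −0.43 (12 and 8 with summed reads). Of 38 actin and focal adhesion genes 12 were lower, Actb among them at −0.99, and 3 were higher, Pxn among them at 1.42, while with summed reads 8 were lower and 9 higher.
For chromatin regulators 12 of 57 were lower and 6 higher, but 7 lower and 17 higher with summed reads. Of 42 genes of RNA decay and export 5 were lower, close to the share of all genes, and 3 higher (4 and 12 with summed reads), the decapping enzyme Dcp2 at 1.37 and the nucleases Parn at 0.86 and Dis3l2 at 0.58. Of 23 p53 pathway genes 3 were lower, Bax at −1.08 and Perp at −1.25 among them, and Apaf1 was higher at 0.58, while 3 were lower and 7 higher with summed reads.
Vesicle coats had 4 lower and 0 higher of 31 (2 and 8 with summed reads), and ribosomal proteins 1 lower and 0 higher of 12, so the lower share of both was near that of all genes. Of 9 nuclear long non-coding RNAs Mir22hg was higher at 1.43, and 2 were lower, Malat1 among them at −1.55 (2 lower and 5 higher with summed reads). The 139 genes with a site that could be tested had 41 higher and 12 lower, at a median of 0.23, a count that their choice by high peaks bears on.

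By class, 96.3% ± 0.985 of the enriched peaks lay in protein-coding genes (SD, n = 3), 1.06% ± 0.329 in long non-coding RNAs and 1.52% ± 0.781 in small RNAs of at most 500 nt. Of all called peaks the shares were 97.6%, 0.974% and 0.730%. The makeup of enriched peaks was thus close to that of all peaks, apart from more small RNA and more peaks outside genes. Peaks outside genes were 1.12% ± 0.587 of the enriched peaks and 0.401% of all called ones. The small RNA share rose little in control 1, from 0.711% to 0.758%. In the knockout 88.1% of enriched peaks were in protein-coding genes, 3.78% in long non-coding RNAs and 6.81% in small RNAs.
As a rate, 1.01%, 1.05% and 0.482% of protein-coding peaks were enriched in controls 1 to 3 against 0.284% in the knockout. For small RNAs the rates were 1.09%, 2.12% and 1.54% against a higher 3.85% in the knockout. These differences were not tested, with 1 knockout list.
The types of small RNA differed widely. Relative to the library median, peaks on microRNA hairpins had medians of 0.46, 1.00 and 1.00 (mean 0.82 ± 0.31, SD, n = 3), and 1.00 in the knockout. The control 2 median, a log2 fold of 1.60, was that list's most frequent value, read as 3 IP reads over 1 input read. At such counts an input of 0 reads and one of 1 cannot be told apart. Peaks on H/ACA snoRNAs had −1.87, −1.41 and −2.13 (mean −1.81 ± 0.37), and −2.33 in the knockout, so the order of these 2 types was the same in all 4 lists.
H/ACA peaks were above input in 15.7%, 18.3% and 7.32% of cases and none was enriched in any list. C/D snoRNAs, which guide methylation of ribose, were above input in 67.6%, 88.0% and 87.3%. Of 33 H/ACA snoRNAs called in all 3 controls 3 were above input in each and 21 below in each, whereas of 72 C/D snoRNAs 41 were above in each and 6 below.
By the lowest control value, Snora24 was the highest of the H/ACA type, at 1.56, 2.00 and 0.98. By the same measure Snord35b was the highest of the C/D type, at 2.89, 2.59 and 2.42, and at 2.46 in the knockout. Snord1a had 2.24, 3.59 and 3.68, and 4.55 in the knockout.
RNase P RNA lay at −1.80 ± 0.39 and RNase MRP RNA at −0.93 ± 0.41 relative to the library median, and snRNAs at −1.14 ± 0.49. In the gene test 18 of 23 small RNA genes were lower and 1, the U8 snoRNA Snord118, was higher at 1.07. Long non-coding RNAs had 5 higher and 3 lower of 29.

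**Figure D5:**
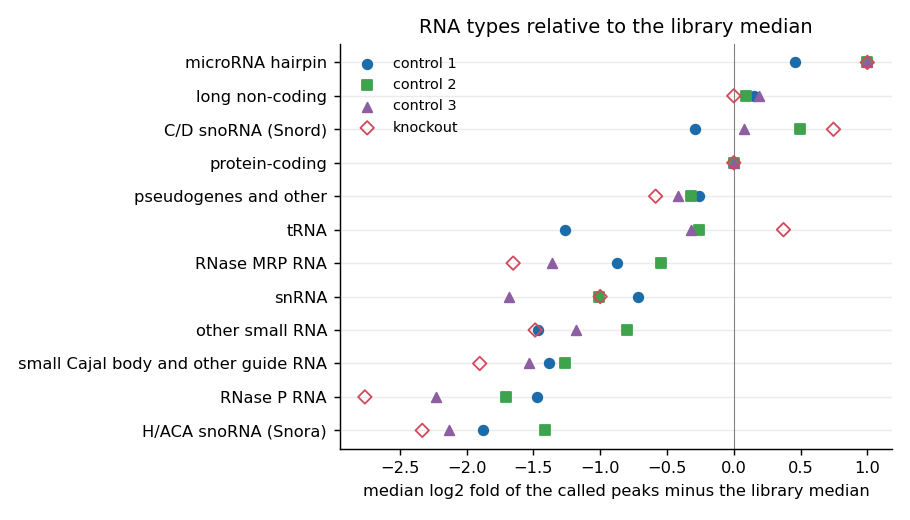
Median log2 fold of the called peaks of each RNA type minus the median of all called peaks in the list, with controls 1 to 3 as filled symbols and the knockout as open diamonds. MicroRNA hairpins lie at 0.46 to 1.00 in every list, and H/ACA snoRNAs between −2.33 and −1.41.

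Against the knockout, no gene value differed by limma over 4581 genes (0 higher and 0 lower, with 429 at an unadjusted p under 0.05, of which 380 were higher in the controls and 49 lower). The smallest adjusted p was 0.503. The fit takes its spread from the 3 controls and assumes that the 1 knockout list varies like them, and an exact permutation test of 3 against 1 cannot go below a p of 0.25.
With the reads summed over each gene's peaks, a setting added after the data were seen, 11 genes were higher in the controls (0.24%) and 19 lower (0.415%). These counts were 42 and 39 without control 1, 61 and 40 without control 2, and 16 and 27 without control 3. Mdm4 led, at 1.81, 2.01 and 2.01 in controls 1 to 3 and −0.40 in the knockout, a difference of 2.34 (SE 0.23, adjusted p = 1.9e-06 by limma). Upf3b (2.25), Pdxdc1 (2.05), Ccnd3 (1.97), Fnbp4 (1.90) and Hnrnpdl (1.59) followed. Ccnd3, cyclin D3, had 54, 12 and 44 called peaks in controls 1 to 3, against 6 in the knockout list.
The 4 largest differences downward were in the kinase Nlk (−1.60), Plekhm2 (−1.55), Ptprn (−1.53) and Zbtb10 (−1.51). By this measure Ptprn and Plekhm2 were above the library level in all 4 lists and highest in the knockout. By the median peak, Ptprn lay at −0.25 in control 2. Peaks below input, more frequent in the knockout list, entered these sums at the smallest reads that give their fold. The effect of this was not tested.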

How the data were processed

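CLIP peaks were analysed from the deposited lists of 3 control IPs and 1 knockout IP over input (mm10, per the submitters' processing notes). The authors' values per peak were a log2 fold and a −log10 p, capped at 400. These units were read from the deposited columns, which have no header. The aligner, peak caller, duplicate handling and choice of input were not given in the sources used here. Genes came from RefSeq spans on the same build by peak midpoint, with non-coding genes of at most 500 nt first. For peaks at or above input, whole IP and input reads were recovered by matching the fold within 1e-05 and the p to a Fisher or Yates test. Below input the p was given as 0, so the smallest whole reads that give the fold stood in for them. Sites and genes were tested with limma 3.58.1 (R 4.3.3, trended prior variance, adjusted p under 0.05), on scripts tested on simulated data. Tables were handled in Python 3.11.15. Coordinates are 1-based.

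Named were 7 fixed genes, the 20 with the highest sites, the 5 with most sites, the 10 highest and 6 lowest gene values, 6 rises and 4 falls against the knockout (by summed reads, since none passed by the median peak), up to 4 per list and the top small RNAs. Of these genes, some are not reported here. Further genes (among them Fn1, Hspg2, Actb, Bax, Perp, Apaf1, Dcp2, Malat1 and the threshold genes) were named after their values were seen. Members and lists were chosen with earlier results of these data known. Alternatives were other thresholds, variance priors, centring, minimum reads and leaving out each control.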

Additional observations from a re-analysis of the deposited data

Results flagged for a closer look

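At 3 sites every control was above input and the knockout below it, and the difference was not tested. The knockout log2 fold was −0.0311 at the Fnbp4 site, −0.1306 at the Slc9a8 site (3.45, 3.43 and 3.16 in the controls) and −0.675 at the second Mdm4 site. The 6 largest rises and 4 largest falls among genes past limma's test with summed reads were chosen by that same test, so their passing is no further support. It rests on 1 knockout list assumed to vary like the controls, and by the median gene value no gene passed. The controls minus the knockout were 2.341 for Mdm4, 2.254 for Upf3b, 2.045 for Pdxdc1, 1.974 for Ccnd3, 1.895 for Fnbp4 and 1.595 for Hnrnpdl. They were −1.51 for Zbtb10, −1.531 for Ptprn, −1.554 for Plekhm2 and −1.598 for Nlk.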

How the results depend on the processing

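No paired analysis was possible because the inputs that share replicate numbers with the controls have no list of their own, and each list is already an IP over its input. The sites enriched in all 3 controls were 339 at a log2 fold of 2, 68 at 4, 131 at a −log10 p of 5 and 109 with at least 29 IP reads. Support by at least 2 controls gave 561 sites in 380 genes. Their genes were 46 at a log2 fold of 4, 92 at a −log10 p of 5 and 73 with 29 IP reads. Leaving out 1 control gave 312 to 382 sites and 202 to 281 genes, the highest of both without control 3. The mean number of enriched peaks was 507 at a log2 fold of 4, 625 at a −log10 p of 5 and 429 with 29 IP reads. Protein-coding shares were 92.9% (log2 fold of 2), 97.4% (4), 95.2% (−log10 p of 5) and 94.4% (29 reads). Long non-coding shares were 1.84% (log2 fold of 2), 1.45% (29 reads) and 0.676% (gene on the peak's strand), and the small RNA share at a log2 fold of 2 was 3.19%. The difference in enriched peaks between longest and shortest genes was −0.774 points at a log2 fold of 2. In genes with an enriched peak it was 5.48 (log2 fold of 4) and 4.74 (−log10 p of 5) by span, and 10.2 (log2 fold of 4) by number of peaks. The site test gave 1805 with a constant prior, 163 centred and 5 to 957 without 1 control. Genes off the library median were 2034 with the mean over peaks (853 higher, 1181 lower), 3344 not centred (3323 higher, 21 lower) and 2234 with summed reads. They were 0 to 0 without 1 control, and with summed reads 1761 without control 1 and 2061 without control 2. Against the knockout, 7 differed with the mean over peaks, 499 not centred and 30 with summed reads, and the last became 81, 101 and 43 without control 1, 2 and 3. The cause of these shifts was not tested. The call of the 16 named genes was lost without any 1 control and kept with summed reads. The settings of 29 IP reads, gene strand and summed reads were added after the data were seen. Depth limits most peaks: the median peak above input had 4 to 5 IP reads.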
